A study of Homo sapiens with 6 samples.

Results

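The genes described here are 10 secreted factors that recruit or produce myeloid cells: the chemokines CXCL1, CXCL2, CXCL3, CXCL5, CXCL6, CXCL8 and CCL20, and the colony-stimulating factors CSF1, CSF2 and CSF3. They were taken by name from a table of 23024 genes, whatever their values. The table covers 6 RNA sequencing libraries of 5637, an established human bladder carcinoma line. Of these, 3 libraries are named NC and carry the genotype label WT; the labels do not spell out what NC means. In the other 3, named sh-RAD51C, a short hairpin RNA was directed against RAD51C, a gene that acts in DNA repair by homologous recombination; which hairpin was used is not given in the labels. All 6 came from transfected cells, and no further treatment or stimulus is listed. The comparison of sh-RAD51C with NC asks how lowering RAD51C altered transcript levels in this line.

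ELR chemokines, named for the amino acids glutamate, leucine and arginine ahead of their paired cysteines, bind the receptors CXCR1 and CXCR2 on neutrophils and draw these cells into inflamed tissue. CCL20 acts through CCR6 on lymphocytes and dendritic cells. CSF3 (G-CSF) drives neutrophil production in the bone marrow, CSF2 (GM-CSF) acts on granulocytes and macrophages, and CSF1 (M-CSF) keeps macrophages alive. Bladder epithelium releases several of these factors during infection. Their genes are textbook targets of NF-kappaB, and most of their mRNAs are short-lived because of AU-rich elements in the 3′ untranslated region (UTR).

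Inferred depth was close in the groups, at 36068282 to 37560184 reads per NC library and 37104318 to 38079825 per sh-RAD51C library. Values are FPKM (reads scaled by gene length and library total), so levels can be set beside each other across genes. RAD51C itself stood at 14.7, 13.2 and 13.6 FPKM in NC 1, 2 and 3, and at 3.51, 3.09 and 2.95 FPKM in sh-RAD51C 1, 2 and 3. Its mean in the hairpin libraries was 23% of that in NC (log2 fold change -1.83, SE 0.0643, limma Benjamini-Hochberg adjusted p = 7.16e-09). The smallest p that an exact two-sided permutation test of 3 libraries against 3 allows, 0.1, was reached. The line's epithelial identity was visible in both groups, as all 9 epithelial and urothelial markers examined were expressed. Their summed level was 2905 to 2997 FPKM in NC and 2664 to 2766 FPKM in sh-RAD51C. Single markers shifted: 5 were higher and 4 lower in sh-RAD51C, against 23.2% and 26.2% of all genes tested. KRT5 (-1.19) and KRT19 (-0.66) were lower on the log2 scale, and KRT7 (0.75) and KRT18 (0.71) higher. Separate cultures are not mentioned in the labels, so the p-values below measure a spread between libraries that may be technical.

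The 10 transcripts did not move as a block. CXCL6, CSF2, CXCL1 and CXCL2 were higher in sh-RAD51C, CXCL3, CCL20, CSF3 and CXCL5 were lower, and CXCL8 and CSF1 did not pass the test (adjusted p under 0.05 in limma over all genes tested). The largest changes were upward, 2.28-fold for CSF2 and 1.99-fold for CXCL6. All 10 passed the filter of a mean of at least 1 FPKM, as did 11152 genes of the table. The 8 called are to be read against a high background, since 49.4% of tested genes were called, 23.2% as higher and 26.2% as lower. The groups did not overlap in any library for the same 8 genes, against 58.4% of all tested genes. The median log2 fold change was 0.02 over the 10 genes and -0.01 over all tested genes. In size, without sign, the medians were 0.33 and 0.15. In bulk RNA, a change in the number of expressing cells and a change in RNA per cell cannot be told apart.

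**Figure D1:**
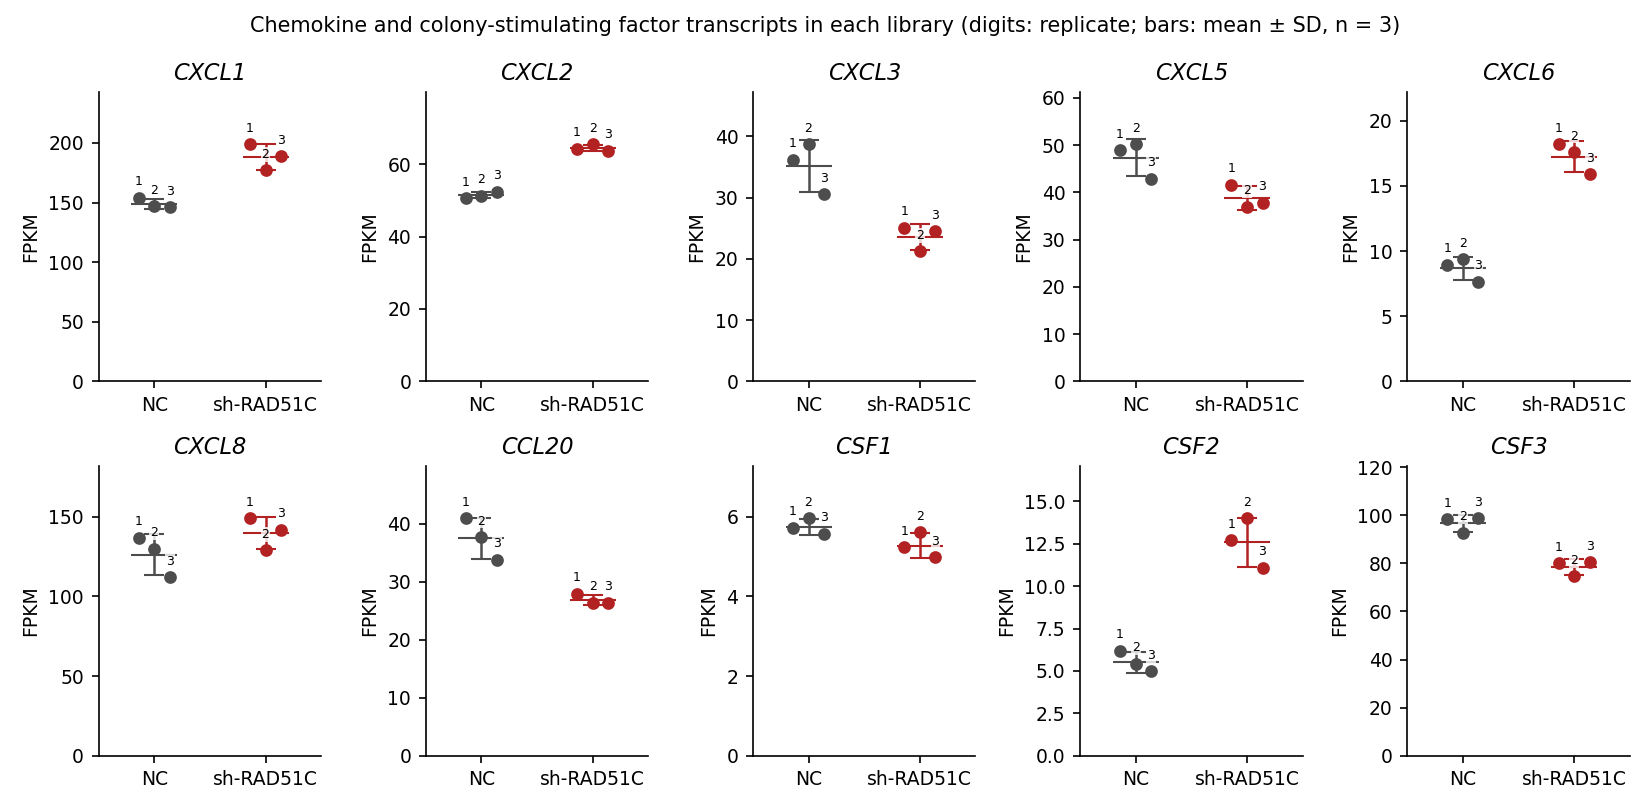
FPKM of each of the 10 transcripts in every library (points, numbered by replicate; linear axes from 0, one scale per gene), with lines at the mean ± SD of the 3 NC and the 3 sh-RAD51C libraries. CSF2 and CXCL6 show the widest gaps upward, CXCL3 and CCL20 the widest downward, and the points of CXCL8 and CSF1 overlap between the groups.

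**Figure D2:**
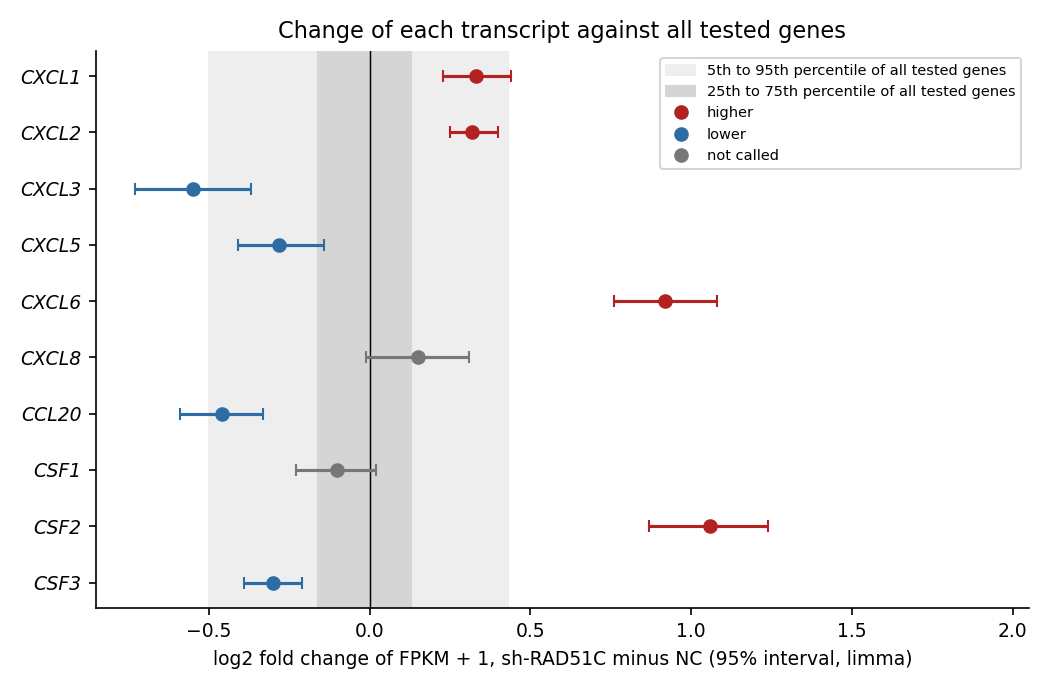
Log2 fold change of FPKM + 1 (sh-RAD51C minus NC) with its 95% interval from limma, for each of the 10 transcripts. The grey bands are the 5th to 95th percentile (-0.50 to 0.43) and the 25th to 75th percentile (-0.16 to 0.13) of all tested genes; CSF2, CXCL6 and CXCL3 lie outside the wider band on one side or the other, and CCL20 lies just within it.

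The 6 ELR chemokine genes lie together on chromosome 4, within chr4:73740506-74099293 (GRCh38, GENCODE release 29). In map order they are CXCL8, CXCL6 and CXCL1 on the plus strand and CXCL5, CXCL3 and CXCL2 on the minus strand. The only other gene of the table in this stretch was PPBP, a platelet chemokine, which averaged 0.0549 FPKM in NC and 0.0268 FPKM in sh-RAD51C and was too low to be tested. Within this span, called genes of opposite direction sat next to each other: CXCL6 and CXCL1 were higher, CXCL5 and CXCL3 lower, and CXCL2, at the far end, higher.

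The proximal promoters of the 6 genes are shown because they share a short run of letters although the transcripts went in different directions. RefSeq windows from 250 bases before to 50 bases after the start site (GRCh38.p14) were found for 8 of the 10 genes, all but CSF1 and CSF3. Each was searched on both strands for GGAATTTCC, the core of a kappaB element bound by NF-kappaB, for TGANTCA, the AP-1 element, and for TATAAA, the TATA box. The stretches from 130 to 21 bases before the start are printed 5′ to 3′ on the gene's own strand, with GGAATTTCC in capitals.
CXCL1 (chr4:73869263-73869372, plus strand): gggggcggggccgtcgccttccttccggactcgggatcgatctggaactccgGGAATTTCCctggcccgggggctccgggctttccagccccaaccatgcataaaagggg
CXCL2 (chr4:74099216-74099325, minus strand): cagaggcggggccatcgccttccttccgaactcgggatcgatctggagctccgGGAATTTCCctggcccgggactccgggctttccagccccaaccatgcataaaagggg
CXCL3 (chr4:74038710-74038819, minus strand): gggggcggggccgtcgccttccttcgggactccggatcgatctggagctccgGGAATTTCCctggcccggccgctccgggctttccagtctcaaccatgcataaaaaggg
CXCL5 (chr4:73998698-73998807, minus strand): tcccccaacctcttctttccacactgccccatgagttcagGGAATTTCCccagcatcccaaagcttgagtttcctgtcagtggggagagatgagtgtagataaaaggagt
CXCL6 (chr4:73836548-73836657, plus strand): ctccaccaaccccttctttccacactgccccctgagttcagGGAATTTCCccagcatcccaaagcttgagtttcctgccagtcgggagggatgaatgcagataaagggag
CXCL8 (chr4:73740439-73740548, plus strand): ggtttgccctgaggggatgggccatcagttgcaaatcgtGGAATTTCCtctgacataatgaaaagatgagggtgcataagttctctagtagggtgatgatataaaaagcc

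All 6 windows held GGAATTTCC on the gene's own strand, and those of CCL20 and CSF2 did not. It began 78 bases before the start in CXCL1 and CXCL3, 77 in CXCL2, 90 in CXCL5, 89 in CXCL6 and 91 in CXCL8. Among all 35116 promoter windows of this length, 0.461% held it. The windows of paralogs are alike beyond these letters, with 82.5% identity for CXCL1 and CXCL3 and 83.1% for CXCL5 and CXCL6. For CXCL2 it was 73.7% with CXCL3 and 69.8% with CXCL1. The 6 matches are therefore not independent of each other. TGANTCA was present in CXCL8 alone, from 137 to 131 bases before the start, against 7.71% of all windows. TATAAA was present in CXCL8 and CCL20, against 11.5% of all windows. No matches of the 3 motifs overlapped each other. The GENCODE gene begins 63 to 181 bases further upstream than the RefSeq start in 5 of the 6 genes (all but CXCL1), so these distances depend on the annotation. A match describes letters in the window and not a bound site. Only exact letters were searched, so the lack of GGAATTTCC in CCL20 and CSF2 does not show that a kappaB element is absent. Of 49 other tested genes with the same 9 letters in a window, 8 were higher, 21 lower and 20 not called. Their median log2 fold change was -0.06, beside -0.01 over all tested genes, of which 23.2% were called higher and 26.2% lower.

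CXCL1, CXCL2 and CXCL3 are close paralogs that bind CXCR2. CXCL1 was the most abundant of the 10 transcripts in both groups, at 154, 147 and 146 FPKM in NC 1, 2 and 3 and 199, 177 and 189 FPKM in sh-RAD51C 1, 2 and 3. The highest NC library was below the lowest sh-RAD51C library. The mean went from 149 ± 4.61 to 188 ± 11.2 FPKM (SD, n = 3), 1.26-fold higher, a change of 0.33 on the log2 scale (SE 0.0459, limma adjusted p = 0.000128), with 6424 to 8900 inferred reads per library.

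CXCL2 behaved alike in direction and size. It was measured at 50.6, 51.3 and 52.4 FPKM in NC and 64.2, 65.5 and 63.7 FPKM in sh-RAD51C, with no overlap and the tightest replicates of the set (coefficient of variation 1.75% and 1.44%). The log2 fold change was 0.32 (SE 0.0337, limma adjusted p = 1.73e-05). CXCL3 went the other way. Its values were 36.2, 38.7 and 30.5 FPKM in NC and 25.1, 21.2 and 24.5 FPKM in sh-RAD51C, so that even NC 3, the lowest of its group, lay above every hairpin library. The mean fell 1.49-fold, or -0.55 as a log2 fold change (SE 0.0817, limma adjusted p = 0.000218).

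The opposed directions show in the balance of the paralogs within each library. CXCL1 exceeded CXCL3 by a factor of 4.26, 3.79 and 4.77 in NC 1, 2 and 3 and of 7.92, 8.33 and 7.72 in sh-RAD51C 1, 2 and 3. CXCL2 exceeded CXCL3 by 1.4, 1.32 and 1.71 in NC and by 2.56, 3.09 and 2.6 in sh-RAD51C. Neither set of factors overlapped between the groups. The CXCL1 to CXCL2 ratio, by contrast, was 2.9 ± 0.137 in NC and 2.92 ± 0.205 in sh-RAD51C (SD, n = 3), with overlapping values. These ratios are descriptions of transcripts already tested one by one and carry no test of their own.

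The split of reads between these paralogs is uncertain, because neither the aligner, nor its treatment of reads matching several genes, nor the use of strand is stated in the labels or processing notes. Over the coding sequence, CXCL1 and CXCL2 were 93.5% identical, CXCL1 and CXCL3 90.7%, and CXCL2 and CXCL3 94.4%. Identical runs of 75 bases were few, but shorter runs and inexact matches were not counted, so the split of reads stays uncertain. Of all 75-base windows of the CXCL2 transcript, 2.01% occurred letter for letter in CXCL3, and 2.3% of the CXCL3 windows in CXCL2. Of the CXCL1 windows, 0.293% occurred in CXCL2 and 0 in CXCL3.

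**Figure D3:**
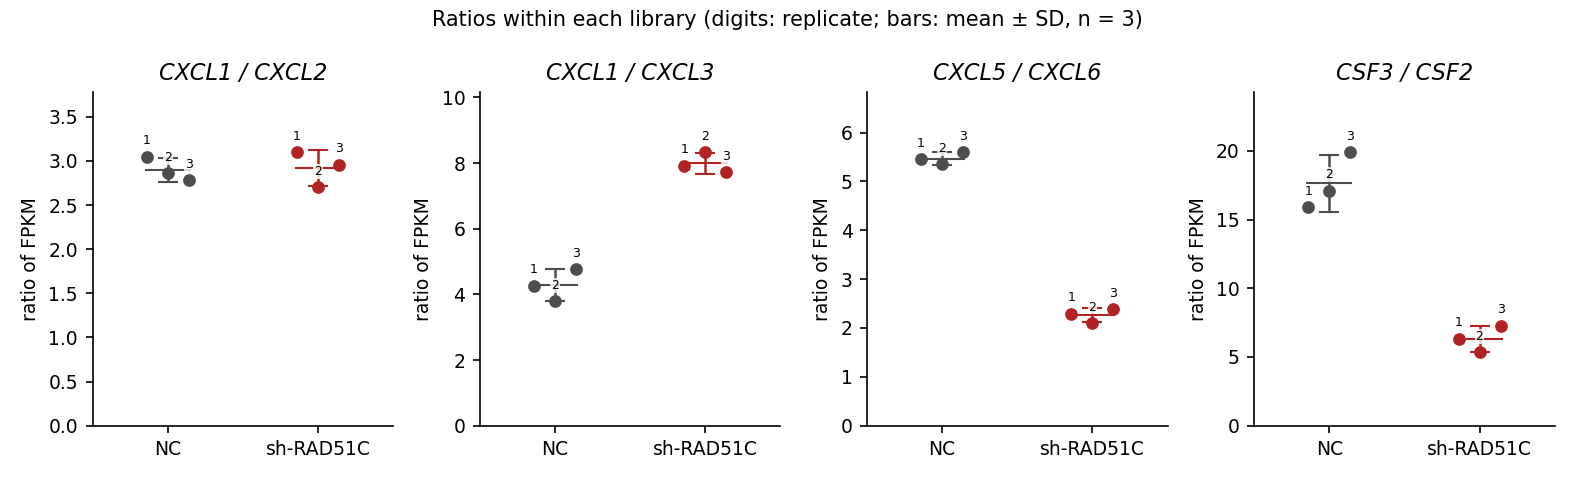
Ratio of FPKM values within each library for pairs of related factors (points, numbered by replicate; linear axes from 0), with lines at the mean ± SD of the 3 NC and the 3 sh-RAD51C libraries. The CXCL1 to CXCL3, CXCL5 to CXCL6 and CSF3 to CSF2 ratios separate the groups without overlap, while the CXCL1 to CXCL2 ratio stays between 2.7 and 3.1 in all 6 libraries.

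CXCL5 and CXCL6 are a second pair of paralogs, with 87.5% identity in the coding sequence and 83.1% in the promoter window, and no identical 75-base window between them. CXCL6, which binds both CXCR1 and CXCR2, had 8.95, 9.39 and 7.66 FPKM in NC 1, 2 and 3 and 18.2, 17.6 and 15.9 FPKM in sh-RAD51C 1, 2 and 3. Every hairpin library was well above every NC library. The log2 fold change was 0.92 (SE 0.0716, limma adjusted p = 1.87e-06), larger in size than that of 98% of tested genes. Exons of CXCL6 overlap those of PPBPP1, a pseudogene on the same strand, so reads of the pair may not be separable.

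CXCL5, which acts through CXCR2, was the more abundant of the pair in both groups but fell. It had 48.9, 50.2 and 42.9 FPKM in NC and 41.6, 37 and 37.8 FPKM in sh-RAD51C. The groups did not overlap, but NC 3 and sh-RAD51C 1 were only slightly apart. The log2 fold change was -0.28 (SE 0.0611, limma adjusted p = 0.00301). The ratio of CXCL5 to CXCL6 was 5.47 ± 0.125 in NC and 2.26 ± 0.145 in sh-RAD51C (SD, n = 3).

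CXCL8 (interleukin-8), the main neutrophil attractant of human epithelia, was the second most abundant of the 10, with 8650 to 11709 inferred reads per library. Its levels were 137, 130 and 112 FPKM in NC 1, 2 and 3 and 149, 129 and 142 FPKM in sh-RAD51C 1, 2 and 3. The groups overlapped, as sh-RAD51C 2 lay below NC 1 and NC 2. The log2 fold change was 0.15 with a 95% interval of -0.01 to 0.31 (limma adjusted p = 0.106), an interval that spans no change as well as a modest increase. This result turned on single libraries. Without NC 1, CXCL8 was called higher (0.21, limma adjusted p = 0.0369), as it was without sh-RAD51C 2 (0.21, limma adjusted p = 0.0424); over all alternatives the adjusted p ran from 0.0369 to 0.401.

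Summed over the 6 ELR chemokines, the level was 436, 426 and 391 FPKM in NC and 498, 447 and 472 FPKM in sh-RAD51C. The groups did not overlap in this sum, to which CXCL1 and CXCL8 contributed 65.9% ± 0.974 in NC and 69.4% ± 0.942 in sh-RAD51C (SD, n = 3). The sum was not tested.

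CCL20 lies outside the cluster, at chr2:227805739-227817564. It had 40.9, 37.7 and 33.8 FPKM in NC 1, 2 and 3 and 27.9, 26.4 and 26.4 FPKM in sh-RAD51C 1, 2 and 3. All NC libraries were higher than all hairpin libraries, and the latter differed little among themselves (coefficient of variation 3.27%, against 9.46% in NC). The mean was 1.39-fold lower, or -0.46 as a log2 fold change (SE 0.0597, limma adjusted p = 8.62e-05).

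The 3 colony-stimulating factors differed in direction. CSF2, at chr5:132073790-132076170, had the largest change of the set. Its level was 6.19, 5.41 and 4.97 FPKM in NC 1, 2 and 3 and 12.7, 14 and 11.1 FPKM in sh-RAD51C 1, 2 and 3, with the groups far apart. The mean went from 5.52 ± 0.621 to 12.6 ± 1.46 FPKM (SD, n = 3), and the log2 fold change was 1.06 (SE 0.0851, limma adjusted p = 2.35e-06). This rests on 147 to 408 inferred reads per library, the fewest of the genes called. Addition of 1 FPKM before taking logs understates changes at such levels: the ratio of mean FPKM was 2.28.

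CSF3, at chr17:40015361-40017813, was the most abundant colony-stimulating factor, at 98.4, 92.7 and 98.7 FPKM in NC and 80.1, 74.6 and 80.4 FPKM in sh-RAD51C. It was lower in all 3 hairpin libraries, by 1.23-fold (log2 fold change -0.30, SE 0.0415, limma adjusted p = 0.000139). CSF3 exceeded CSF2 by a factor of 17.6 ± 2.04 in NC and of 6.31 ± 0.963 in sh-RAD51C (SD, n = 3). CSF1, at chr1:109910242-109930992, had 5.72, 5.96 and 5.57 FPKM in NC and 5.23, 5.61 and 4.99 FPKM in sh-RAD51C. The groups overlapped, and the log2 fold change of -0.10 had a 95% interval of -0.23 to 0.02 (limma adjusted p = 0.156).

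In both groups the order of levels began with CXCL1, CXCL8, CSF3, CXCL2, CXCL5, CCL20, CXCL3 and CXCL6. In NC, CCL20 and CXCL3 could not be separated by their ranges over libraries, nor could CSF1 and CSF2, which came last. In sh-RAD51C no neighbours overlapped, and CSF2 stood above CSF1. CXCL1 had a higher mean level than 97.3% of tested genes, CXCL8 than 96.4% and CSF3 than 94.2%, whereas CSF1 exceeded 36.5%.

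Spread among the NC libraries differed between the 10 genes. The median coefficient of variation was 8.88% over the 10 genes in NC, against 4.02% over all tested genes, and 6.13% against 5.38% in sh-RAD51C. In NC, 6 of the 10 lay above the median of all tested genes, and CXCL1 (3.09%), CXCL2 (1.75%), CSF1 (3.42%) and CSF3 (3.51%) lay below it; the difference was not tested. NC 3 held the lowest NC value for 8 of the 10 (all but CXCL2 and CSF3), while it was lowest for 27.5% of all tested genes. In sh-RAD51C, library 2 was lowest for 6 of the 10, against 30.4% of all tested genes. Without NC 3 the same counts were called, 4 higher and 4 lower. The closest genes in pattern to CXCL1 over the 6 libraries, by root mean square difference of log2 values from their own NC mean, were CCDC137 (0.0257), LANCL2 (0.0276) and MED17 (0.0331).

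The 3′ UTRs of these transcripts were examined for ATTTA, written AUUUA in the mRNA, the pentamer of AU-rich decay elements. The densest 30-base windows of CSF2 and of the 3 CXCL1-type paralogs are printed below in DNA letters, 5′ to 3′, with each ATTTA in capitals; overlapping copies share their end letters. They are shown to set the transcript that rose most beside paralogs of opposite direction. The windows of CSF2 and CXCL2 hold 5 overlapping copies and that of CXCL1 holds 3. That of CXCL3, the lower paralog, holds 2 separate copies. Among transcripts not printed, the densest window holds 1 copy in CXCL6 (higher) and CCL20 (lower). It holds 2 in CXCL5 (lower) and CSF1 (not called), 3 in CSF3 (lower) and 4 in CXCL8 (not called). Over the set, the count therefore did not sort by direction.
CSF2 (3′ UTR bases 220 to 249): ttttaaaatATTTATTTATTTATTTATTTA
CXCL1 (3′ UTR bases 129 to 158): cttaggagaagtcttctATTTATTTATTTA
CXCL2 (3′ UTR bases 137 to 166): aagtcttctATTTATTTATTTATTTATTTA
CXCL3 (3′ UTR bases 143 to 172): ttacgagggttctacttATTTAtgtATTTA

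CSF2 had 8 pentamers, or 25.2 per kb, a density above that of 99.9% of tested genes. CXCL2 followed with 13.9 per kb and CXCL3 with 10.4 per kb, and CXCL1 had 7.08 per kb. The median over 10329 tested genes with an annotated 3′ UTR was 1.66 per kb. The other called transcripts ranged from 5.36 per kb in CXCL6 to 8.2 per kb in CSF3. CSF1, with 1.86 per kb, was the one gene of the set near that median. Densities above that median were found among higher and lower transcripts alike. Over 988 other tested genes with at least 5 per kb, 261 were higher, 190 lower and 537 not called. Their median log2 fold change was 0.03, beside -0.01 over all tested genes, of which 23.2% were called higher and 26.2% lower.

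**Figure D4:**
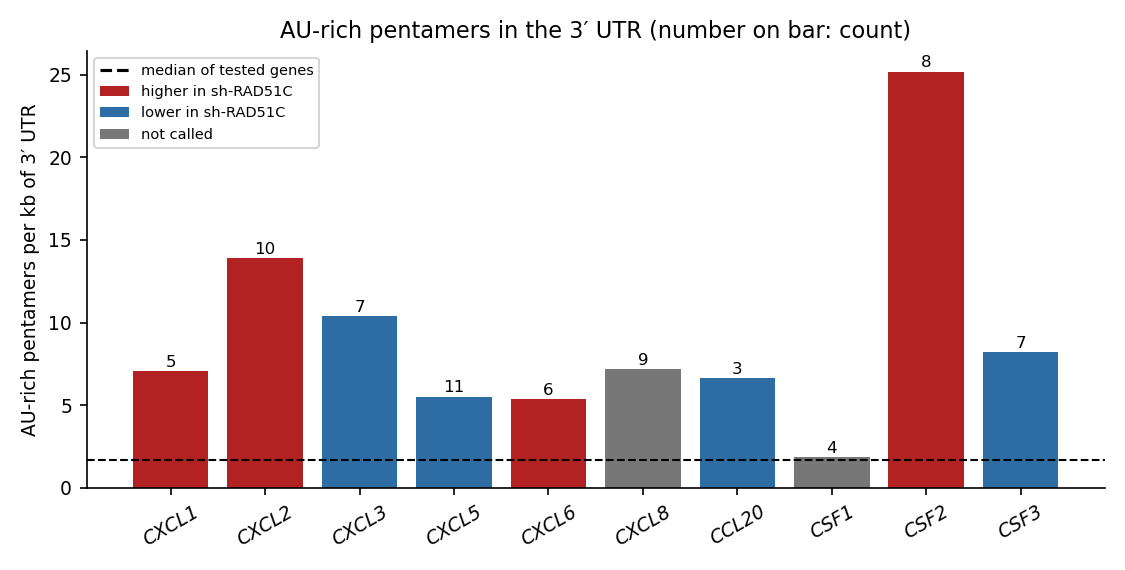
Density of the AU-rich pentamer in the 3′ UTR of each of the 10 transcripts (bars, per kb from 0), with the number of pentamers on each bar. Bar colour gives the call in sh-RAD51C, and the line marks the median of tested genes, 1.66 per kb; CSF2 is highest at 25.2 and CSF1 lowest at 1.86.

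Of 8 receptors listed for these factors, the 5 found in the table were close to undetected in the line. CXCR2, CCR6, CSF1R, CSF2RB and CSF3R together summed to 0.0575 to 0.207 FPKM per NC library and 0.125 to 0.201 FPKM per sh-RAD51C library, and none was high enough to be tested. CXCR1, CSF2RA and ACKR1 were not found in the table, so nothing can be said of their levels. Of 17 other chemokines listed, only 2 were tested and both were lower, beside 26.2% of all tested genes called lower. CXCL10, an interferon-induced attractant of T cells, averaged 2.68 ± 0.241 FPKM in NC and 0.621 ± 0.415 FPKM in sh-RAD51C (SD, n = 3; limma adjusted p = 3.88e-05). CXCL16, a transmembrane chemokine bound by CXCR6, fell from 14 ± 0.83 to 11.8 ± 0.784 FPKM (limma adjusted p = 0.00744).

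Markers of cells that could bring in such factors were low. Summed blood cell markers (9 of 11 in the table, 2 tested) came to 4.18 to 4.71 FPKM in NC and 3.53 to 4.37 FPKM in sh-RAD51C. CD14, CD68 and ITGB2 made up nearly all of this, while PTPRC, ITGAM and FCGR3B, which define leukocytes and neutrophils, were at most 0.0122 FPKM in any library. CD14, a co-receptor for lipopolysaccharide, fell from 1.57 ± 0.156 to 0.573 ± 0.334 FPKM, and CD68, a lysosomal protein, rose from 1.72 ± 0.165 to 2.24 ± 0.29 FPKM (SD, n = 3), a call lost in 6 alternatives. These include the omission of NC 1, NC 3 or sh-RAD51C 1 (limma adjusted p = 0.0858, 0.0558 and 0.0781 for CD68; range over its alternatives 0.008 to 0.103). Stromal and endothelial markers (9 of 10 in the table, 1 tested) summed to 9.92 to 10.6 FPKM in NC and 6.98 to 7.71 FPKM in sh-RAD51C. COL1A1, a collagen chain, accounted for the fall, from 9.94 ± 0.397 to 6.83 ± 0.386 FPKM (SD, n = 3), and the other 8 were at most 0.327 FPKM in any library. Of these, a pair of endothelial markers went the other way without overlap: CDH5 averaged 0.0239 FPKM in NC and 0.245 FPKM in sh-RAD51C, and KDR 0.0138 and 0.0513 FPKM. PECAM1, also endothelial, was lower without overlap (0.114 and 0.0409 FPKM). With no filter on low values CDH5 was called higher (limma adjusted p = 0.00595) and KDR was not (limma adjusted p = 0.145). Of the markers in these sentences, ITGB2, PTPRC, ITGAM, FCGR3B, CDH5, KDR and PECAM1 were named after their values were seen. The part of these cell markers in the changes above was not tested.

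Genes listed as possible inducers of such factors moved in both directions, and whether they act on the 10 in this line was not tested. Of 17 tested genes among inducing cytokines, their receptors and adaptors, 4 were higher and 9 lower. Their median log2 fold change was -0.16, beside -0.01 over all tested genes. For this list and those below, the background is 23.2% of all tested genes called higher and 26.2% lower. IL6, a cytokine of the acute-phase response, rose from 0.735 ± 0.0389 to 6.29 ± 0.771 FPKM (SD, n = 3), 8.55-fold (limma adjusted p = 1.06e-08). TLR4, the receptor for bacterial lipopolysaccharide, rose by 0.75 on the log2 scale (limma adjusted p = 4.35e-06). IL36G, an epithelial cytokine of the interleukin-1 family, fell by 0.97 (limma adjusted p = 3.18e-06), and IL17RC, a subunit of the interleukin-17 receptor, by 0.61 (limma adjusted p = 2.13e-06). The interleukin-1 genes, named after their values were seen, were expressed at higher levels than any of the 10 factors. IL1B averaged 341 ± 12.2 FPKM in NC and 392 ± 11.1 FPKM in sh-RAD51C (log2 fold change 0.20, limma adjusted p = 0.00159), while IL1A averaged 250 ± 7.45 and 225 ± 5.69 FPKM (-0.15, limma adjusted p = 0.00584; SD, n = 3).

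NF-kappaB genes were mostly lower: of 17 tested subunits, kinases and feedback inhibitors, 1 was higher and 12 lower (median log2 fold change -0.32). All 4 with the smallest p were lower. NFKBIA, which holds the factor in the cytoplasm, fell from 220 ± 7.93 to 145 ± 11.1 FPKM, and TNFAIP3, a ubiquitin-editing inhibitor, from 67.7 ± 4.55 to 39.6 ± 0.548 FPKM (SD, n = 3). Their adjusted p-values in limma were 4.04e-06 and 3.32e-07. TNIP1, a partner of TNFAIP3, and BCL3, a nuclear relative of NFKBIA, fell by 0.53 and 0.72 on the log2 scale (limma adjusted p = 1.28e-06 and 3.63e-07). Among the subunits, named after their values were seen, RELA was not called (-0.04, limma adjusted p = 0.417). The other subunits were called lower: REL (-0.69, limma adjusted p = 3.72e-05), RELB (-0.52, limma adjusted p = 0.000101), NFKB1 (-0.32) and NFKB2 (-0.29). The 1 gene called higher, likewise named afterwards, was the kinase CHUK, by 0.25 (limma adjusted p = 0.00948), a call lost with no filter on low values.

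Of 10 tested AP-1 and C/EBP factors, 3 were higher and 6 lower (median -0.27). FOSL1, an AP-1 subunit, rose from 53.3 ± 6.8 to 142 ± 6.1 FPKM (SD, n = 3; limma adjusted p = 8.89e-08), and JUN, its partner, rose by 0.87 on the log2 scale. JUNB fell by 0.64 and CEBPA, a myeloid and epithelial differentiation factor, by 1.27 on the same scale.

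The list of 14 AU-rich mRNA decay and stability factors also holds signalling genes such as DUSP1. Of these 14, 5 were higher, 5 lower and 4 not called (median 0.04). ZC3H12A (Regnase-1), an endonuclease that cleaves IL6 and other cytokine mRNAs, fell from 112 ± 1.3 to 57.5 ± 1.58 FPKM (SD, n = 3; log2 fold change -0.95, limma adjusted p = 7.83e-09). The ARE-binding decay factors ZFP36L1 and ZFP36L2 went in opposite directions, by 0.59 and -0.50 on the log2 scale. DUSP1, a phosphatase that restrains p38 signalling, rose by 0.79.

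**Figure D5:**
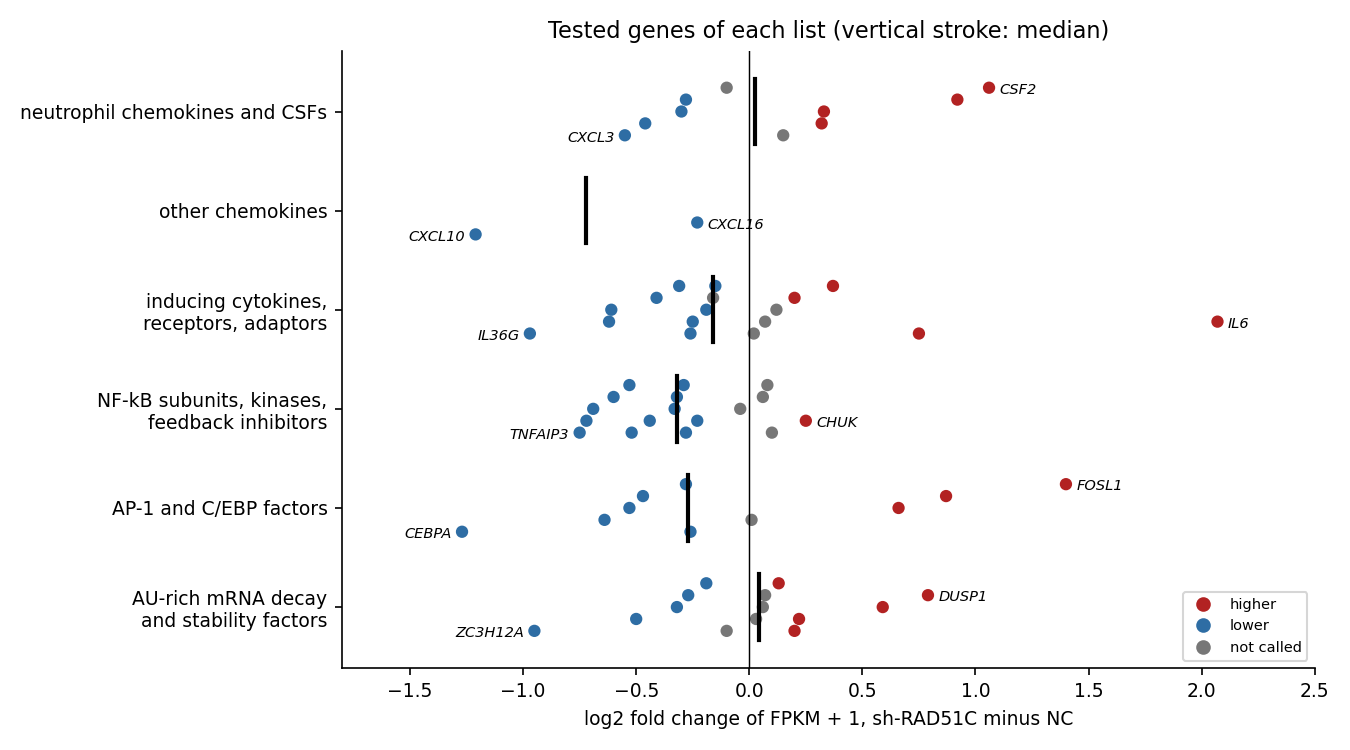
Log2 fold change (sh-RAD51C minus NC) of every tested gene in 6 groups of related genes, 1 point per gene, coloured by call, with a vertical stroke at the median of each group. The median of NF-kappaB genes is -0.32 and that of the AU-rich decay and stability list 0.04, and the 10 secreted factors spread from -0.55 to 1.06.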

How the data were processed

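RNA sequencing libraries were made from total RNA extracted with TRIzol from transfected 5637 cells, using the VAHTS Universal V6 kit, per the labels' protocols. FPKM had been computed by the authors before deposit. The submitters' processing notes list hg38, R 3.2.0 and DESeq2 but give no role for the tools. Aligner, counter, strand setting and annotation: not given in the sources used here. Titles tied each of the 6 columns to its library, and 0 columns were unused.

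The 11152 genes averaging 1 FPKM or more were transformed as log2(FPKM + 1). They were fitted in limma 3.58.1 under R 4.3.3, with group as the only term, a mean-variance trend, and p-values adjusted over all of them (Benjamini-Hochberg). The call threshold was an adjusted p under 0.05. The FPKM steps gave whole reads (within 0.001 reads) for 11151 of these genes, used for depth and for 1 added alternative. Libraries of a group differed by more than sampling noise. The fit and the recovery of reads were tested on simulated data.

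The 10 genes and the lists of related genes were chosen with earlier results of these data known. Named genes are all 10, RAD51C, every receptor, up to 4 genes per list with the smallest limma p, and the 3 genes most like CXCL1; others are marked. Positions and 3′ UTRs (of 1 principal transcript a gene) are from GENCODE release 29 on GRCh38; promoter windows are from RefSeq on GRCh38.p14. Identity came from global alignment in Biopython 1.88. Alternatives covered the pseudocount, the filter, rescaling, the trend, the threshold, a replicate block and the omission of each library. Python 3.11.15, numpy 2.4.6, pandas 2.3.3, scipy 1.17.1 and matplotlib 3.10.9 were used.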

Additional observations from a re-analysis of the deposited data

How the results depend on the processing

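Of the 10 genes, 9 kept their call and direction in all 16 alternatives, and CXCL8 in 14 (called higher without NC 1 and without sh-RAD51C 2). No result reversed its direction. Leaving out each library in turn gave 4522 to 5464 called genes, 2129 to 2609 of them higher and 2393 to 2855 lower. Restricting the test to genes averaging 5 FPKM or more left 1859 genes lower, against 2922. CXCL5 had its weakest support with no filter on low values (limma adjusted p = 0.0406, range 0.000432 to 0.0406). Rescaling left the median of all genes between -0.02 and 0.01 (log2), and quantile normalization called 2867 genes higher and 2687 lower.

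With a replicate block, 5569 genes were called (2601 higher, 2968 lower), with the same 8 of the 10, and CXCL8 had a limma adjusted p of 0.056. The numbers were not taken to pair the libraries: deviations of same-numbered libraries correlated at 0.19, 0.0257 and 0.0909, and not every library correlated best with its own number. Voom on inferred reads, chosen after seeing the data, called 5664 genes and the same 8. Among 28 other genes named by the rule above, 435 of 441 alternative values kept their call, and the other 6 were all for CD68. Genes named after their values were seen were left out of this count. CHUK, 1 of the latter, was no longer called with no filter on low values.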
